A study of Homo sapiens with 6 samples.

Results

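The genes described here encode 9 receptors of neural crest and sympathetic neurons: the kinases ALK, LTK, RET, NTRK2 and NTRK3, the GDNF family co-receptors GFRA1, GFRA2 and GFRA3, and the neurotrophin receptor NGFR. They were chosen by name, and all 9 were found among the 60709 genes used from the count table by matching Ensembl identifiers, without their version, to symbols. The libraries were made from mRNA of SH-SY5Y, a long-established neuroblastoma line of sympathetic origin, derived from human tumour cells, that is known to carry an activating substitution in the ALK kinase domain. Gene counts do not tell the altered ALK allele from the other. In such bulk libraries, fewer cells with a transcript and less of it per cell cannot be told apart.

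The labels list 3 control samples, whose wells received DMSO as the only addition, and 3 samples that also received a fumarate linked to an Nrf2 peptide, dissolved in water. All wells held 2 mL of serum-containing medium and 10 uL of DMSO, and cells were lysed after 5 h. The labels number the control samples 4, 5 and 6 and the peptide samples 13, 14 and 15, while the count columns are numbered 1 to 6. Columns 4, 5 and 6 were matched to the controls and are the only values used. The other 3 columns match the number of no labelled sample, so the peptide samples are not analysed here and no effect of the peptide is given. The name control holds only if the column headings follow the numbers of the labels. Nothing in the labels says whether the wells came from separate cultures, so the spread given below is that between these 3 libraries and may be technical.

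ALK and LTK are sister receptor tyrosine kinases that are switched on by the small secreted proteins ALKAL1 and ALKAL2. RET is the signalling kinase for GDNF, neurturin, artemin and persephin, which first bind a GFRA protein held at the membrane by a lipid anchor. NTRK2 and NTRK3 encode the TRK receptors for brain-derived neurotrophic factor and neurotrophin-3, and NGFR encodes p75, a death-domain receptor without kinase activity that binds all neurotrophins. In the sympathetic lineage these receptors are known for guiding survival, migration and differentiation, and ALK is the receptor most often activated by mutation in neuroblastoma.

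The control libraries held 8887854 to 11397407 counts. Each pair differed by more than sampling noise: chi-square per degree of freedom was 2.21 between replicates 1 and 2 but reached 9.21 and 10.2 in the pairs with replicate 3, against about 1 under sampling noise. Replicate 3 thus stood apart, and its share of mitochondrially encoded counts was 6.25% against 3.83% to 4.11% in the others. Of 7 markers of noradrenergic neuroblastoma cells, 6 had at least 10 counts in every library, among them DBH, the enzyme that makes noradrenaline, with 6200 to 9384 counts. TH, a defining marker of catecholamine synthesis, had 0 counts in every library, which allows up to 0.339 CPM in the shallowest. CPM here means counts per 1000000 of the TMM-scaled library total. Among markers of mesenchymal neuroblastoma cells, 6 of 7 passed the same minimum and PRRX1 had 0 counts. The highest per kilobase were TWIST1 at 187 ± 20.0 CPM, FN1 at 184 ± 14.6 CPM and SNAI2 at 12.7 ± 2.87 CPM. The median level was 201 ± 3.36 CPM for the noradrenergic list and 15.1 ± 0.882 CPM for the mesenchymal list (SD, n = 3). Over all genes in the table, 22.9% passed the minimum. That base includes 32543 genes with 0 counts in all 3 libraries. Among genes of the table with a RefSeq promoter entry, 10233 passed and 7111 did not. The 22.9% is thus a low base for lists of named genes, here and below. Markers of Schwann and glial cells summed to 6.48 to 8.58 CPM, with SOX10 at 0 counts in every library, and the 4 leukocyte markers summed to at most 0.0935 CPM.

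Transcripts of 8 of the 9 receptor genes were present at 10 counts or more in every library, compared with 22.9% of all genes in the table. Levels ran from RET, with at least 6415 counts per library, down to NTRK3, with at most 2. RET made up 83.6 ± 0.506% (SD, n = 3) of the summed level of the 9 genes when each was taken as CPM per kilobase of its longest transcript. ALK made up 9.93 ± 0.668% and LTK 2.84 ± 0.160%, and none of the other 6 exceeded 1.40 ± 0.218%, the share of NGFR.

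**Figure D1:**
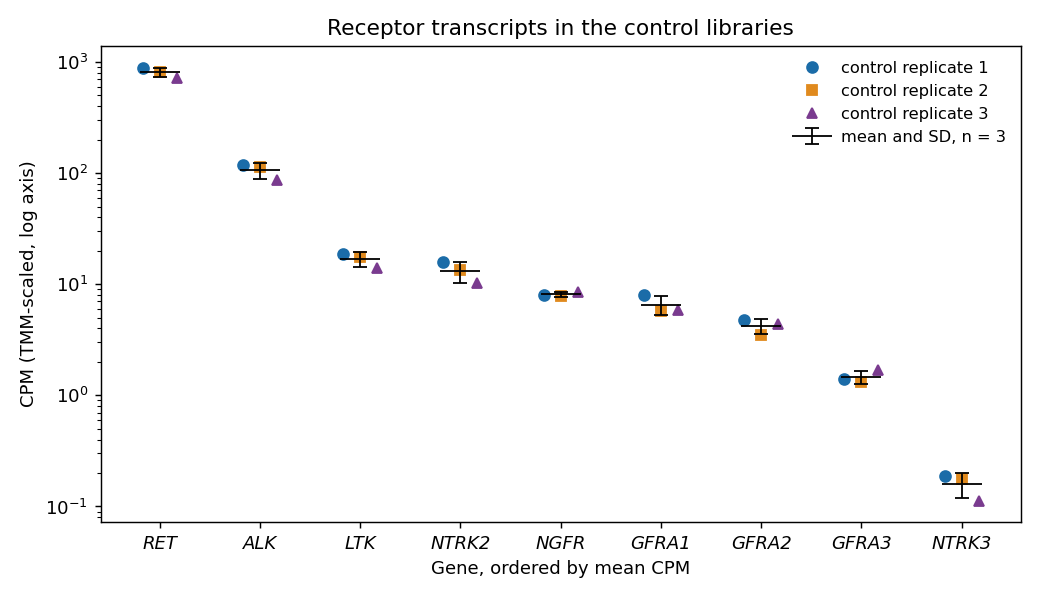
Level of each of the 9 receptor genes in each control library, in CPM on a log axis, with genes ordered by mean CPM. Symbols are libraries, and bars give the mean and SD of 3 libraries. RET lies at 724 to 886 CPM and NTRK3 at 0.113 to 0.187 CPM.

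RET (ENSG00000165731.20) lies at chr10:43077027-43130351 on the plus strand of GRCh38. It had 9472 counts in replicate 1, 9380 in replicate 2 and 6415 in replicate 3. Scaled to depth, these were 886, 821 and 724 CPM, a mean of 810 ± 81.2 CPM (SD, n = 3), so replicate 3 was the lowest and replicate 1 the highest. With a counting error of 1.03 to 1.25% per library, the spread of 10.0% between libraries was larger than counting gives, also without replicate 3, where the SD was 45.9 around a mean of 855 CPM. Per kilobase of transcript, RET reached 143 ± 14.3 CPM, above 97.9% of 13863 genes of known length that reached 10 counts in each of the 3 libraries.

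ALK (ENSG00000171094.18), at chr2:29192774-29921566 on the minus strand, had 1262, 1300 and 770 counts in replicates 1, 2 and 3. Its levels were 118, 114 and 87.0 CPM, a mean of 106 ± 16.8 CPM. Replicates 1 and 2 lay close together and replicate 3 was the low library. The counting error of 2.77 to 3.60% was under the spread of 15.8%, but this rested on replicate 3: without it the SD was 3.0002 around a mean of 116 CPM, which is within counting error. LTK (ENSG00000062524.16), at chr15:41503638-41513887 on the minus strand, had 201, 202 and 123 counts. That gave 18.8, 17.7 and 13.9 CPM, a mean of 16.8 ± 2.57 CPM, again with replicate 3 lowest. Without that library the SD of LTK was 0.791 around 18.3 CPM, under its counting error of 7.04 to 9.02%. Per kilobase, ALK was 3.48 times LTK in replicate 1, 3.56 times in replicate 2 and 3.47 times in replicate 3, a mean of 3.50 ± 0.0534. This SD is smaller than the counting error of LTK allows, so it does not show that the proportion is fixed. RET exceeded ALK by 8.25, 7.93 and 9.16 times per kilobase in the same libraries, a mean of 8.45 ± 0.636. No library of RET overlapped any library of ALK on this scale, and none of ALK overlapped LTK.

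The 3 upstream sequences are shown because they belong to the receptor genes with the highest levels, RET and ALK, and to the lowest, NTRK3. They were taken from RefSeq promoter windows on GRCh38.p14, cut to the bases that lie before both the RefSeq start and the GENCODE gene start. They run 5′ to 3′ on the strand of the gene, and capitals mark GGGCGG or its reverse complement CCGCCC, the GC box. RET, plus strand, chr10:43076819-43077026, ALK, minus strand, chr2:29921587-29921836, and NTRK3, minus strand, chr15:88256769-88256989, read as follows.
RET: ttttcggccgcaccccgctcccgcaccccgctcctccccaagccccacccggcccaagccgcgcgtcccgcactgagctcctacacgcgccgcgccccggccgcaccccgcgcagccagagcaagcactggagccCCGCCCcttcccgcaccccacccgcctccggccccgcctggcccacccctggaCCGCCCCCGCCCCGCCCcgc
ALK: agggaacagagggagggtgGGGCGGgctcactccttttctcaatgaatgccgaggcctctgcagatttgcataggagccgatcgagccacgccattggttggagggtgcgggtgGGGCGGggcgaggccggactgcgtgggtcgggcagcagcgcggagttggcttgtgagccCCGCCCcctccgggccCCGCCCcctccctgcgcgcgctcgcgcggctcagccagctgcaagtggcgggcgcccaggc
NTRK3: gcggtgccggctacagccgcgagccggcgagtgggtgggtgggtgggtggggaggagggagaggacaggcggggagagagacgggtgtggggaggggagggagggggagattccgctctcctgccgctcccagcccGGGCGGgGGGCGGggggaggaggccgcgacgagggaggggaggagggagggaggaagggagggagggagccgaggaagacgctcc

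In the full 250 bases before the RefSeq start, searched on both strands with overlapping matches counted, RET held 5 GC boxes and 33 CG dinucleotides, ALK 4 and 24, and NTRK3 2 and 23. The GC content was 73.2% for NTRK3, 79.6% for RET and 71.6% for ALK. LTK, the third gene in level, held 0 GC boxes and 14 CG dinucleotides. GFRA1 held 0 and 23, GFRA3 1 and 14, and NTRK2 1 and 7. The windows of GFRA1 and NTRK2 lie past the GENCODE gene start, inside the annotated gene. Over 17389 genes, 52.6% held at least 1 GC box in a window of this length and the median was 16 CG dinucleotides. Among 10233 genes that reached 10 counts in each control library the share was 68.4% and the median 21, against 29.95% and 4 for 7111 other genes of the count table. Windows that matched no gene of that table are in neither set. Other motifs were searched in the same way and were absent from the windows of all 7 receptor genes with an entry. They were the TATA box (letters TATAAA), in 9.58% of all windows, the E-box (letters CACGTG), in 7.52%, the antioxidant response core (letters TGACNNNGC), in 11.7%, and a palindromic homeodomain motif, in 0.247%. The absence says only that these letters are not in these windows. RefSeq listed more than 1 start for RET, ALK, GFRA1 and NTRK2, and the entry nearest to the GENCODE gene start was used. GFRA2 and NGFR had no entry.

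RET needs a GFRA partner to bind its GDNF family ligands, and the 3 co-receptor genes were all low. GFRA1 (ENSG00000151892.15), the preferred partner of GDNF, lies at chr10:116056925-116273467 on the minus strand and had 85, 66 and 52 counts. Its levels were 7.95, 5.78 and 5.87 CPM, a mean of 6.53 ± 1.23 CPM, with replicate 1 apart from the others. GFRA2 (ENSG00000168546.11), the preferred partner of neurturin, lies at chr8:21690403-21812357 on the minus strand and had 51, 40 and 39 counts. It measured 4.77, 3.50 and 4.404 CPM, a mean of 4.22 ± 0.653 CPM, with replicate 2 lowest. GFRA3 (ENSG00000146013.11), the preferred partner of artemin, lies at chr5:138252379-138274671 on the minus strand and had 15 counts in each library. It measured 1.40, 1.31 and 1.69 CPM, a mean of 1.47 ± 0.199 CPM.

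Per kilobase the GFRA genes lay within a narrow band, at 0.709 ± 0.133 for GFRA1, 0.858 ± 0.133 for GFRA2 and 0.721 ± 0.0977 for GFRA3. Their ranges over the libraries overlapped. Within each library GFRA2 was the highest, at 1.12, 1.14 and 1.40 times GFRA1 and 1.41, 1.10 and 1.08 times GFRA3 in replicates 1, 2 and 3. With counting errors of 10.8 to 25.8% per library, these ratios were not resolved from 1. At 15 counts the counting error of GFRA3 is 25.8%, larger than its spread of 13.6% between libraries. RET exceeded the summed GFRA1, GFRA2 and GFRA3 levels by 62.1, 73.2 and 54.2 times per kilobase in replicates 1, 2 and 3. GFRA4, the partner of persephin, had 1, 0 and 0 counts, and GFRAL, the partner of GDF15, had 0 in every library.

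Of the TRK receptor genes in the set, NTRK2 was present and NTRK3 was barely detected. NTRK2 (ENSG00000148053.17), the receptor for brain-derived neurotrophic factor, lies at chr9:84668551-85027070 on the plus strand and had 168, 153 and 90 counts. It measured 15.7, 13.4 and 10.2 CPM, a mean of 13.1 ± 2.79 CPM, with replicate 3 lowest. Replicates 1 and 2 were not resolved from each other at this depth. The spread of 21.3% was the largest among the 8 genes that passed the minimum of 10 counts, and exceeded the counting error of 7.72 to 10.5%. Without replicate 3 the SD was 1.64 around a mean of 14.6 CPM. NTRK2 also makes truncated isoforms without the kinase domain, which gene counts do not separate from the full-length receptor. NTRK3 (ENSG00000140538.16), the receptor for neurotrophin-3, lies at chr15:87859751-88256768 on the minus strand and had 2, 2 and 1 counts. Its 5 pooled counts correspond to a 95% Poisson interval of 0.0524 to 0.377 CPM, which covers counting error only. Whether NTRK3 differs between the libraries was not detectable at this depth.

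NGFR (ENSG00000064300.9), encoding p75, lies at chr17:49495293-49515017 on the plus strand and had 85, 90 and 76 counts. It measured 7.95, 7.88 and 8.58 CPM, a mean of 8.14 ± 0.389 CPM. This spread of 4.78% was the smallest of the 9 genes and lay under the counting error of 10.5 to 11.5%, so no difference between libraries was detectable for NGFR. SORT1, encoding sortilin, the co-receptor with which p75 binds unprocessed neurotrophins, was 9.24 ± 0.329 times as high as NGFR per kilobase of the longest transcript, and 61.1 times with the median transcript length. Exons of NGFR overlap those of 2 genes on the opposite strand in GENCODE release 29, AC015656.1 and AC006487.1, and both had 0 counts in every library. None of the other 8 receptor genes shares exon bases with another gene there.

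The order per kilobase of the longest transcript was RET, ALK, LTK, NGFR, NTRK2, GFRA2, GFRA3, GFRA1 and NTRK3. Of the 8 neighbouring pairs, 6 had libraries that did not overlap, and the pairs within the GFRA genes did. Transcript length bears on this order, since the longest NTRK3 transcript has 19984 bases and that of GFRA3 has 2039. With the union of exons or the median transcript length in its place, RET, ALK, LTK and NGFR kept places 1 to 4 and NTRK3 place 9. NTRK2 moved from place 5 to place 8 with the union of exons and to place 7 with the median length.

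**Figure D2:**
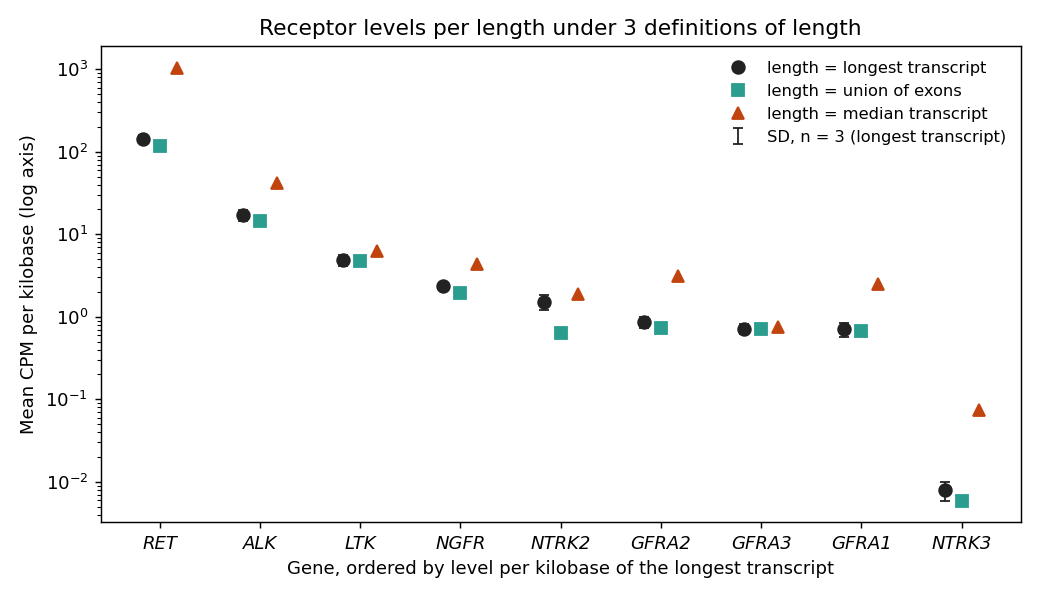
Mean level of each receptor gene in CPM per kilobase on a log axis, for 3 definitions of transcript length. Bars give the SD of 3 control libraries for the longest transcript. RET, at 143 per kilobase of its longest transcript, lies above ALK, at 17.1, under each definition, and NTRK3 lies lowest.

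The receptors were then set beside their ligands, of which 7 of 13 genes reached 10 counts in each library. Over all genes in the table the share was 22.9%, but with the low base described above no excess of ligand genes is read from this. ALKAL1, an activating ligand of ALK and LTK, had 0 counts in every library, and ALKAL2 had 15, 23 and 12 counts, a mean of 1.59 ± 0.367 CPM. MDK and PTN encode midkine and pleiotrophin, heparin-binding growth factors that have also been linked to ALK. They were the most abundant of the 13 ligand genes, at 943 ± 58.7 CPM for MDK and 291 ± 25.5 CPM for PTN. PTPRZ1, a receptor phosphatase that binds both proteins, had 0 counts in every library.

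Among ligands of RET, GDNF had 0 counts in every library, which allows up to 0.339 CPM in the shallowest. NRTN, encoding neurturin, had 62, 63 and 36 counts, a mean of 5.13 ± 0.929 CPM. PSPN, encoding persephin, had 84, 104 and 80 counts, a mean of 8.66 ± 0.701 CPM, while its partner GFRA4 was close to 0. ARTN, encoding artemin, had 23, 25 and 16 counts, a mean of 2.05 ± 0.2101 CPM. GDF15, a stress-induced member of the wider family, was at 7.95 ± 1.24 CPM. So the cells held transcripts of NRTN and ARTN and of their partners GFRA2 and GFRA3, while GFRA1 was measured without GDNF transcripts at this depth.

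The neurotrophin genes BDNF, NTF3 and NTF4 were low. BDNF had 13, 13 and 9 counts, a mean of 1.12 ± 0.1004 CPM. NTF3 had 3, 4 and 5 counts and NTF4 had 6, 3 and 2, each too few to compare between libraries. The medium contained serum, so ligand transcripts of the cells do not give the ligand the receptors met.

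**Figure D3:**
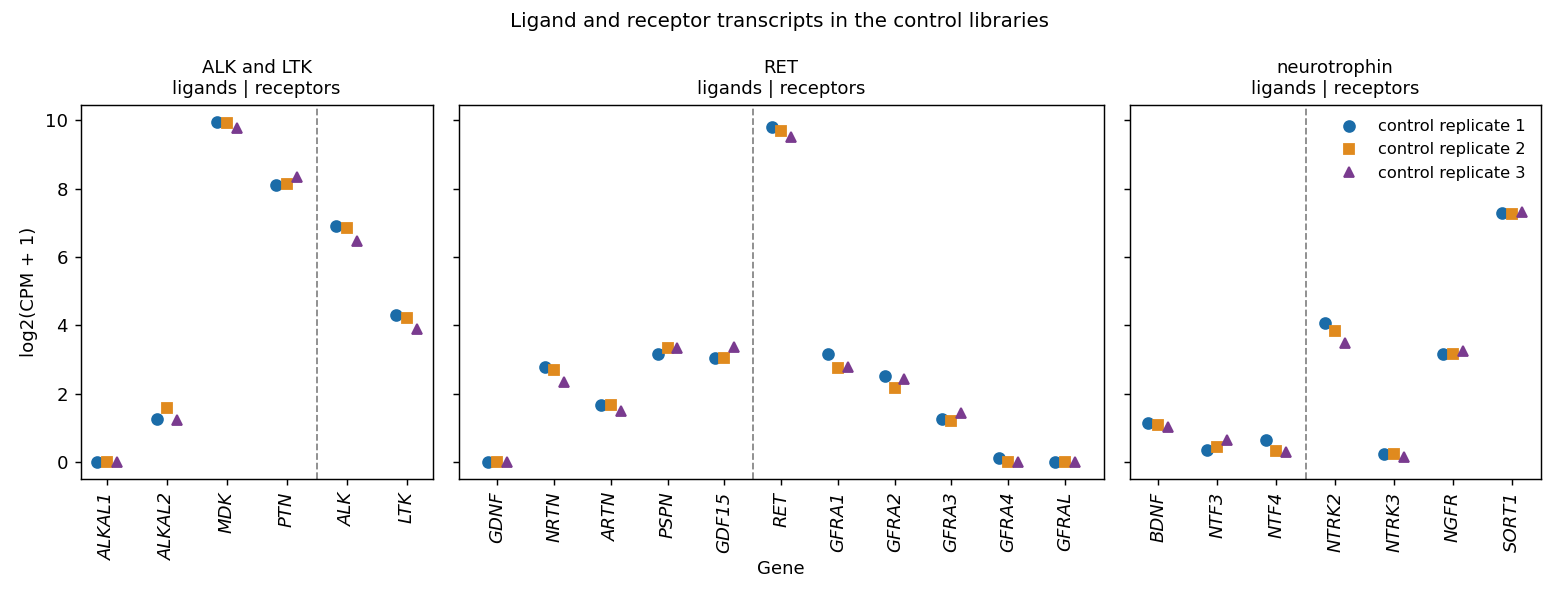
Ligand genes (left of each dashed line) and receptor genes (right) of the ALK and LTK, RET and neurotrophin systems, as log2(CPM + 1) in each of 3 control libraries. ALKAL1, GDNF and GFRAL lie at 0 counts, while MDK (943 CPM) and RET (810 CPM) lie highest.

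All 5 kinases of the set belong to a list of 58 human receptor tyrosine kinases. Of these, 35 (60.3%) reached 10 counts in each library, and 8 had 0 counts in all 3. The share was 22.9% over all genes in the table. Among genes with a RefSeq promoter entry, 10233 passed and 7111 did not, so no excess of these kinases is read from their share. RET ranked first of the 58 per kilobase, also with the union of exons and with the median transcript length. With the longest transcript, the next gene, PTK7, a pseudokinase of the Wnt pathway, was at 46.1 ± 3.61 CPM per kilobase, and RET was 3.11 times as high. FGFR1, a fibroblast growth factor receptor gene, followed at 21.4 ± 1.43. This order depended on the length: with the median length IGF1R was next after RET, at 427 against 1048 CPM per kilobase, and PTK7 had place 5, and with the union of exons FGFR1 had place 10. ALK ranked seventh, between LMTK2 at 17.6 ± 0.609 and the Wnt receptor RYK at 15.1 ± 1.16 CPM per kilobase, and its libraries overlapped those of both. Its place was 5 with the union of exons and 13 with the median length. LTK ranked 21 between ROR2 at 5.15 ± 0.501 and the insulin receptor gene INSR at 4.39 ± 0.342. The place of LTK was 16 with the union of exons and 26 with the median length, where INSR had place 8. NTRK2 ranked 30 between LMTK3 at 1.75 ± 0.231 and EPHA10 at 1.15 ± 0.193, also with overlapping libraries on both sides. NTRK3 ranked 48, between KDR and EPHA4, which had at most 2 counts in any library.

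Downstream of these receptors, adaptors carry the signal from phosphorylated tyrosines to RAS, PI3K and phospholipase C. Of 26 such genes, 24 passed the minimum of 10 counts per library, and the median level of the list was 122 ± 12.3 CPM. The highest per kilobase were SHC1 at 119 ± 7.06, DOK4 at 75.8 ± 5.06 and GRB2 at 75.5 ± 4.42 CPM per kilobase. SHC1 and GRB2 link the receptors to RAS, and DOK4 is a docking protein that binds RET. DOK5, another RET docking protein, had 0 counts in every library. FRS2, the docking protein shared by ALK, RET and TRK receptors, was at 43.6 ± 4.02 CPM. Among genes of p75 signalling and cleavage, 12 of 12 passed the minimum, led per kilobase by ARHGDIA at 171 ± 17.8, BEX3 at 147 ± 7.79 and MAGED1 at 93.0 ± 5.00. BEX3 and MAGED1 bind the intracellular part of p75. ARHGDIA, BEX3 and MAGED1, named because they were the 3 highest of this list, stood far above NGFR itself, at 2.38 ± 0.114 CPM per kilobase. The median of the 12 genes was 37.5 ± 2.12 CPM per kilobase. As background, 22.9% of all genes in the table passed that minimum, and the median over these 13920 genes was 31.3 ± 0.334 CPM. The 122 CPM of the adaptor list is a median over all its 26 genes, also those that did not pass.

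Related co-receptors passed the minimum for 8 of 12 genes, compared with 22.9% of all genes in the table. They were led by SORCS1 at 53.4 ± 1.77, NCAM1 at 52.5 ± 2.03 and SORT1 at 21.98 ± 0.511 CPM per kilobase. SORCS1 and SORT1 are sorting receptors of one family, and NCAM1 is a cell adhesion molecule that can bind GDNF together with GFRA1.

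Because control replicate 3 stood apart, each receptor gene was compared between it and the mean of replicates 1 and 2 on the log2(CPM + 1) scale. Among the 8 that passed the minimum of 10 counts, 5 (62.5%) were lower in replicate 3, a share near the 51.6% of all genes with that minimum. The differences were -0.47 for NTRK2, -0.41 for ALK, -0.37 for LTK, -0.23 for RET and -0.18 for GFRA1. GFRA3 stood 0.19 higher, NGFR 0.10 and GFRA2 0.08. The median over all such genes was -0.01. GFRA1, GFRA2, GFRA3 and NGFR have counting errors of 10.5 to 25.8% per library, so their differences were not resolved at this depth. Over the whole table these differences followed GC content: their median was 0.20 in the 2058 genes of lowest GC content (median 38.3%) and -0.20 in the 2058 of highest (median 61.3%). The trend was removed and the differences were computed again. They became -0.54 for NTRK2, -0.26 for ALK, -0.16 for LTK, -0.12 for RET and -0.19 for GFRA1, and 0.39 for GFRA3, 0.31 for NGFR and 0.21 for GFRA2. The SD of RET fell from 81.2 to 42.5 CPM, that of ALK from 16.8 to 10.9 and that of LTK from 2.57 to 1.13. Those of the other 6 genes rose, that of NGFR from 0.389 to 1.18 CPM. The removal also gave differences to genes with 0 counts in every library, 0.26 for TH and -0.13 for PRRX1. It can thus shift genes of low counts by itself. How much of the change in such genes, GFRA3 and NTRK3 among them, came from the removal was not tested. NTRK2, whose longest transcript has a GC content of 43.4%, was again the gene with the lowest value relative to the other replicates. The mitochondrial share of counts was also highest in replicate 3, and its part in these differences was not tested.

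**Figure D4:**
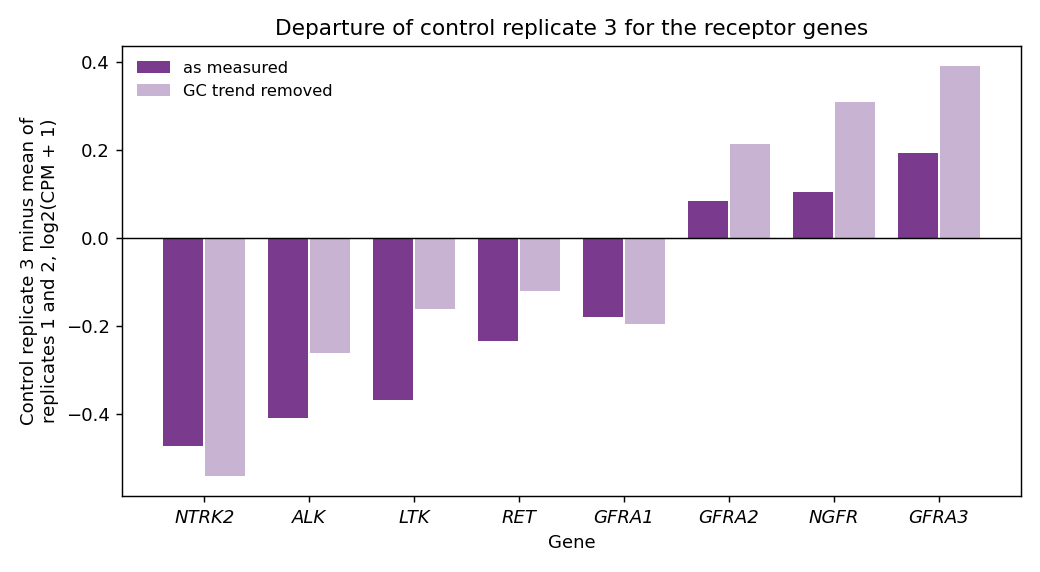
Control replicate 3 minus the mean of replicates 1 and 2 for the 8 receptor genes that passed the minimum of 10 counts, on the log2(CPM + 1) scale, as measured and with the GC trend of each library removed. NTRK2 is lowest at -0.47 and -0.54. The bars of ALK, LTK and RET are nearer to 0 with the trend removed.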

How the data were processed

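The authors deposited 1 table of unnormalized counts, in whole numbers, with an Ensembl gene per line. The submitters' processing notes name fastp 0.21.1, STAR 2.7.7a, featureCounts and the build GRCh38. The annotation release, the use of strand and the treatment of reads shared between genes are not given in the sources used here. Of the table's 60710 genes, 1 has no value in the 3 columns used, and 2 lines that name no gene were dropped. Another 3 count columns match no labelled sample and were not used.

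Scaling to CPM used R 4.3.3 and edgeR 4.0.16, whose TMM factors multiplied the library totals. Lengths, GC content and gene positions came from GENCODE release 29 on GRCh38. The length was that of the longest transcript. The GC trend was the median deviation per library in 50 bins of 10290 genes, mitochondrial genes left out, whose mean reached 100 counts, subtracted after interpolation. Promoter windows came from RefSeq. Other steps used Python 3.11.15, pandas 2.3.3 and scipy 1.17.1.

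With 1 matched group no test between groups was run, and edgeR served for normalization and the spread between libraries. Intervals and limits cover counting error only. The rule for named genes took all 9 receptors, all ligands, the 3 highest genes per kilobase of each list and the neighbouring receptor tyrosine kinases. TH, PRRX1, SOX10, DOK5, CBLC, SPRED1, CBLB, FRS2, IGF1R, PTPRZ1, GFRA4 and GFRAL were named after their values were seen. Some genes that the rule takes are not reported here. The members and lists were chosen with earlier results of these data known. Likeness of pattern was not computed, since it needs at least 6 libraries. The spread and GC steps were tested on simulated data. Alternatives were RLE size factors from DESeq2 1.42.0, library size alone, mitochondrial genes left out, other count minimums, other lengths and each library left out.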

Additional observations from a re-analysis of the deposited data

How the results depend on the processing

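No paired analysis was possible because no count column carried the number of a peptide sample, which leaves the controls unpaired. For the same reason the planned comparison of peptide with control, its block, DESeq2 and filter alternatives were not run. RLE size factors, library size alone and each library left out moved none of the 9 CPM levels by more than 1 SD, which leaving out 1 of 3 libraries cannot do to a mean by construction. Leaving out mitochondrial genes moved 1 of the 9, NGFR, to 8.54 CPM. The definition of length moved most. With the median transcript length, RET was 25.0 times ALK per kilobase, ALK was 6.74 times LTK, RET was 164 times the summed GFRA1, GFRA2 and GFRA3 and 17.1 times the sum of the other 8 genes, against 8.45, 3.50, 63.2 and 5.10 as reported. With the union of exons, ALK was 2.998 times LTK and RET was 4.90 times the sum of the other 8 genes. Either definition kept 5 of 9 genes in their place. Short annotated fragments lower the median for RET to 773 bases. The minimum of 1 count raised the ligand genes from 7 to 11 and the receptors from 8 to 9, and the minimum of 30 left 7 receptors. Without replicate 3 the biological coefficient of variation from edgeR was 3.87% against 7.86%. It leaves out counting error and covers genes with at least 10 counts in each library used. The SDs of single genes include counting error. Without replicate 3 the SD of ALK was 3.0002 CPM against 16.8, and that of LTK 0.791 against 2.57. That of NGFR was 0.0508 against 0.389, that of GFRA3 0.0637 against 0.199 and that of NTRK3 0.00849 against 0.0398. The SD of GFRA1 was 0.0682 CPM without replicate 1 against 1.23, and that of GFRA2 was 0.262 without replicate 2 against 0.653. These are the SDs that changed most. Leaving out the library farthest from the other 2 lowers an SD by construction, so a fall alone does not single out a library. With all 3 libraries, the spreads of NGFR, GFRA3 and NTRK3 already lay under counting error. Depth limits GFRA2, GFRA3, NTRK3 and NGFR, and the ligand genes ALKAL2, ARTN, BDNF, NTF3 and NTF4, among others.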

Other observations

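Genes that restrain or report receptor tyrosine kinase signalling were also measured in the control libraries. Of 16 feedback regulators and brakes, 15 had at least 10 counts in every library, compared with 22.9% of all genes in the table. The highest per kilobase were DUSP4, a phosphatase of MAP kinases, at 31.6 ± 2.08 CPM per kilobase (SD, n = 3), PTPN1, a tyrosine phosphatase, at 30.6 ± 1.43, and SPRY1, a Sprouty inhibitor of RAS signalling, at 27.6 ± 2.63. CBLC, a ubiquitin ligase, had 0 counts in every library, and was chosen after its values were seen. In replicate 3, 13 of these 15 genes were higher as measured than the mean of the other replicates. The median difference was 0.11 on the log2(CPM + 1) scale and 0.10 with the GC trend removed. Among the 13, SPRED1 and CBLB fell below 0 with the trend removed, to -0.04 and -0.02. Over all genes passing the minimum, 6737 of 13920 were higher in replicate 3 as measured. No cause of these differences was tested, and the 3 libraries belong to 1 labelled group.

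All 12 genes listed as transcriptional readouts of receptor signalling had at least 10 counts in every library, compared with 22.9% of all genes in the table. VGF, a neurotrophin-inducible secreted protein, was highest at 2873, 2614 and 2144 CPM in replicates 1, 2 and 3. CCND1, encoding cyclin D1, followed per kilobase with 932 ± 34.7 CPM, and the ETS factor ETV4 with 102 ± 9.36 CPM. MYCN, which is amplified in other neuroblastoma lines, had 24, 27 and 15 counts, and MYC had 178, 238 and 136. MYCN and MYC were chosen after their values were seen.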
